A study of Mus musculus with 14 samples.

Results

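Described here are 9 genes of central myelin and the oligodendrocyte, Mbp, Mobp, Mog, Mag, Opalin, Cnp, Ugt8a, Mal and Cldn11, in the mouse hippocampus. The genes were chosen by name, and each was taken as the row of the deposited gene counts whose Ensembl identifier carries that symbol in the GENCODE M21 annotation. All 9 were found among 55536 Ensembl genes, and all 9 were among the 38070 genes that passed the filter on low counts (at least 10 counts over the 14 libraries). The series asked whether the kinase activity of IRAK4, which relays signals from Toll-like and interleukin-1 receptors, shapes hippocampal transcripts in lupus-prone mice. Hippocampi of mice aged 10 months were taken after perfusion with PBS, and 1 poly(A) RNA library was made per mouse. MRL mice (B6.MRL-Faslpr/J, n = 4) carry the lpr allele of Fas, MRL-IRAK4-KD mice (n = 4) carry lpr and a kinase-dead IRAK4, IRAK4-KD mice (n = 3) carry the kinase-dead IRAK4 without lpr, and C57BL6/J mice (n = 3) carry neither. All 4 groups share the C57BL/6 background, so "MRL" names the lpr allele on that background and not the MRL strain, and the IRAK4 mutation is present in every cell of the animal and not in oligodendrocytes alone.

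Oligodendrocytes wrap axons of the central nervous system in myelin, a stack of compacted membrane rich in cholesterol and galactolipids that speeds conduction and supports the axon. Mbp and Mobp are basic proteins that hold the cytoplasmic faces of compact myelin together, Mag faces the axon on the innermost wrap, Mog and Opalin sit in the membrane of the mature cell, Cnp is abundant in the cytoplasmic channels, Ugt8a makes galactosylceramide, Mal is a proteolipid of lipid-rich membrane, and Cldn11 forms the tight junctions of the sheath. In the hippocampus, myelin is densest in the fibre tracts that border and cross it, such as the alveus and fimbria. In bulk tissue, fewer oligodendrocytes and less of these transcripts per oligodendrocyte cannot be told apart.

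Before the levels are given, 2 libraries must be named. In the library of MRL-IRAK4-KD replicate 4, the stock measured 13.48 nM by qPCR against 23.49 to 27.55 nM in the other 13, the deposited counts came to 1.40 per sequenced read against 1.80 to 2.08, and the first principal component, 49.4% of the variance of genes with a mean of at least 1 CPM (counts scaled to the library total by edgeR), separated it from the other 13 (a score of 113 against -20.1 to 4.68). In the library labelled IRAK4-KD replicate 3, the transcript Fas-204 had 514 counts and Fas-201 had 0. The MRL and MRL-IRAK4-KD libraries had 268 to 964 counts of Fas-204 and 0 of Fas-201, and the remaining C57BL6/J and IRAK4-KD libraries had at most 7 of Fas-204 and 345 to 584 of Fas-201, so this library carried the Fas transcripts of the lpr groups against its label. The kinase-dead mutation did not mark a library by its Irak4 level, which was 2.05 to 2.24 CPM in MRL-IRAK4-KD replicates 1 to 3, 1.54 in replicate 4, and 1.81 to 2.72 in the other groups. Total counts per library ran from 279941472 to 572398312. Both libraries are included in the values below unless they are said to be left out. The members' comparisons that use either library, and the main counts of the gene lists, are also given without it or without both.

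The sequence before the transcription start of 5 starts is printed because the members varied together between libraries, as shown further on, and because the deposited counts of Mag were divided between transcripts of 2 annotated starts. Each line holds the 250 bases before the start, read 5′ to 3′ on the strand of the gene, from RefSeq on GRCm38.p6, the build also called mm10. RefSeq starts were at hand for 8 of the 9 members, 10 starts in all, and not for Mbp. Capitals mark matches, on either strand, to ACAAAG (a core bound by SOX proteins, the family of Sox10), CTGGCAC or CTGGTAC (cores bound by the myelin regulatory factor Myrf).

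Mag start 1: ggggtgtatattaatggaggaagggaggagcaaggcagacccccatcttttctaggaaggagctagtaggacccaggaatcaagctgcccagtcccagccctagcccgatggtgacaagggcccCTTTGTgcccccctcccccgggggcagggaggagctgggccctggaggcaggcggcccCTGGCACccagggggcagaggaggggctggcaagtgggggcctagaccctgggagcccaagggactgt
Mag start 3: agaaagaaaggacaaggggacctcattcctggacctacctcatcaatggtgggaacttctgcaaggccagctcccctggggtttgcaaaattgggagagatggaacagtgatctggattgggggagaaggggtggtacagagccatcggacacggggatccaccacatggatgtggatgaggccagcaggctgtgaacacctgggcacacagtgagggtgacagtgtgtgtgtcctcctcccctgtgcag
Cnp: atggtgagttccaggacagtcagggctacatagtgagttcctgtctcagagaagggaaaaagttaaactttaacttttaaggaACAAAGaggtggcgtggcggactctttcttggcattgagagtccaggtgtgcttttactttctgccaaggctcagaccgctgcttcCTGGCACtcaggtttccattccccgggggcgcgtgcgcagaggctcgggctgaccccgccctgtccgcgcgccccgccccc
Mog: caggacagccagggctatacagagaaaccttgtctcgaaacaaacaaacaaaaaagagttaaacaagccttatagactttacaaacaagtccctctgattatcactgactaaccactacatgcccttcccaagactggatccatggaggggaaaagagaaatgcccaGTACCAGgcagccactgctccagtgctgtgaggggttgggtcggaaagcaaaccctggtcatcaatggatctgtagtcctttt
Mobp: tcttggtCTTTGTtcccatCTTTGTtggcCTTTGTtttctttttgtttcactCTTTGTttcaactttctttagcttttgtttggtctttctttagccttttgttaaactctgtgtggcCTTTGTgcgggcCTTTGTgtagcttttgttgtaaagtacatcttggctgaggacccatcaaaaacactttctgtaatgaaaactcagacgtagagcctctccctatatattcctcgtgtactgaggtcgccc

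The first Mag start lies at chr7:30914864-30915113, and the most abundant Mag transcript, Mag-203, begins 31 bases downstream of it. The third lies at chr7:30914322-30914571, within 13 bases of the first base of Mag-207, and held none of the motifs. The window before Cnp lies at chr11:100574689-100574938, that before Mog at chr17:37023399-37023648 and that before Mobp at chr9:120149492-120149741. ACAAAG was found before the starts of 4 members, Cnp, Mag, Mobp and Opalin, and in 16.5% of the 32851 promoters of the same length in the RefSeq table. CTGGCAC was found before Cnp and Mag and in 4.19% of the promoters, and CTGGTAC before Mog and in 1.83%. ACAATG, a second SOX core, and the E-box CAGCTG were found before none of the members and in 10.7% and 13% of promoters, and the E-box CAGATG before Opalin alone and in 14.4%. None of these 6 motifs overlapped another in the printed windows. The Mobp window held 6 matches to ACAAAG, all on the strand opposite to the gene, and it was the 1 promoter of the table with 6 or more, a count looked up after the matches had been seen. The windows before Mal, Ugt8a and Cldn11 held none of the 6 motifs. Their base composition differed among members, with a GC content of 76.8% before Ugt8a and 63.6% before Cldn11 against 40.8% before Mobp, 46.8% before Mog and a median of 52.4% over the table. A match says that the letters are there and not that a factor binds.

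Levels of different members can be compared only per unit of length. TPM (transcript levels per unit of length), computed from the deposited transcript counts and GENCODE lengths, averaged 1994 for Mbp, 637 for Mobp, 179.9 for Cnp, 124 for Mal, 106 for Cldn11, 104 for Mag, 46.3 for Mog, 18.9 for Opalin and 18.7 for Ugt8a over the 14 libraries. Mbp, Mobp, Cnp and Mal kept this order in all 14 libraries, except that Mal lay above Cldn11 in 13. Cldn11 lay above Mag in 7 of 14 libraries and Opalin above Ugt8a in 9 of 14, so neither pair differed in level beyond its spread. Among all genes, Mbp ranked between 29 and 52 from the top by TPM, while Ugt8a ranked between 5336 and 9139.

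Mbp, the most abundant member (chromosome 18, 82475146 to 82585637, plus strand, mm10), had 2590, 1962, 2169 and 1772 CPM in MRL replicates 1 to 4 (2123 ± 351, SD, n = 4) and 2256, 2379, 1975 and 1785 CPM in MRL-IRAK4-KD replicates 1 to 4 (2099 ± 269, SD, n = 4). It had 1775, 1410 and 1884 CPM in C57BL6/J replicates 1 to 3 (1690 ± 248, SD, n = 3) and 1788, 1940 and 1761 CPM in IRAK4-KD replicates 1 to 3 (1829 ± 96.9, SD, n = 3). All 4 groups overlapped, with the highest value in MRL replicate 1 and the lowest in C57BL6/J replicate 2.

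**Figure D1:**
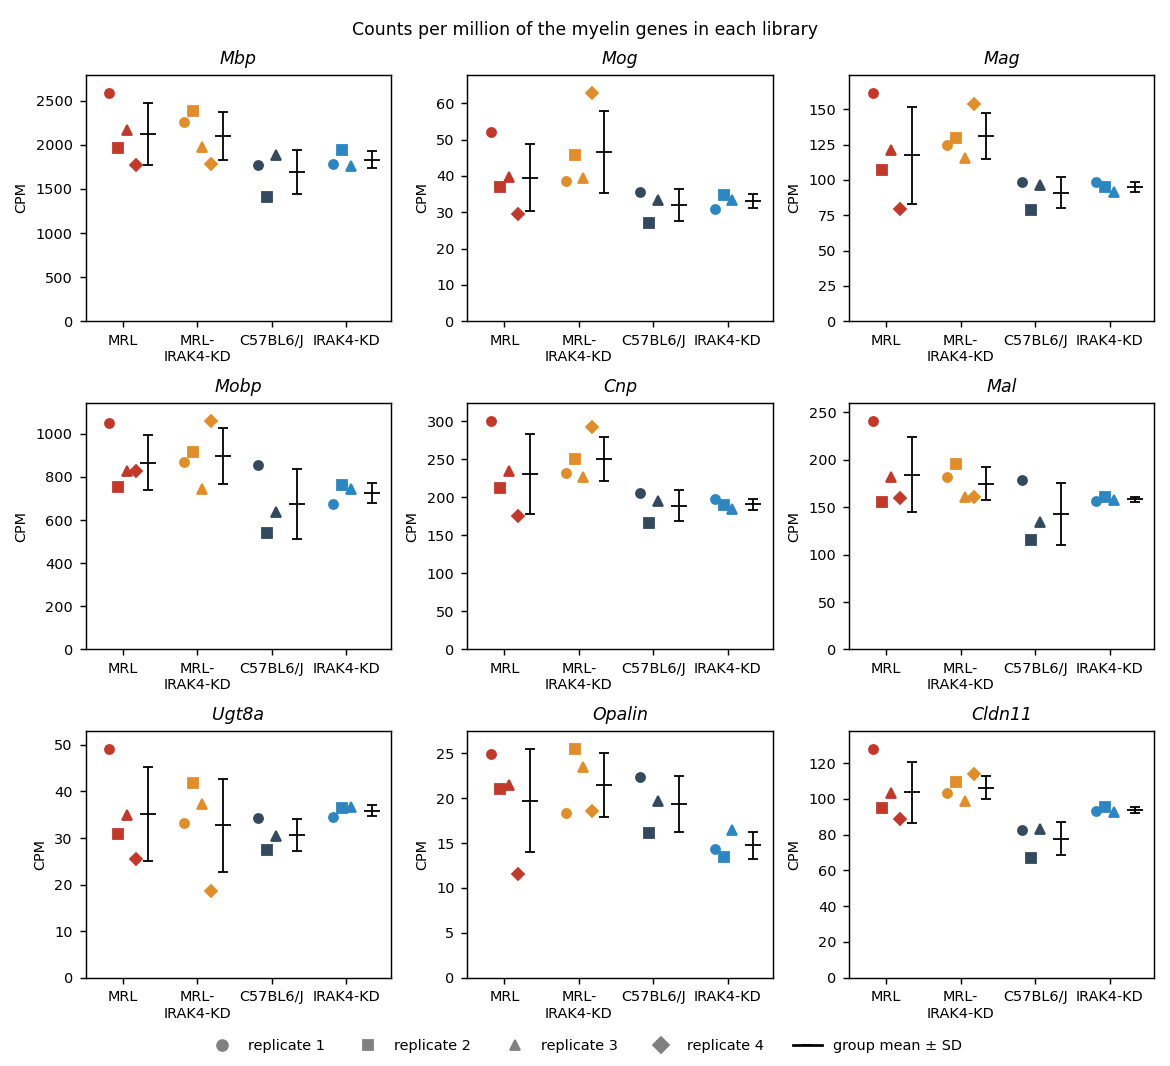
Each panel plots the CPM (scaled by TMM, linear axis from 0) of 1 myelin gene in the 14 libraries by group. Marker shapes give the replicate and black bars the group mean ± SD. MRL replicate 1 was the highest MRL library in every panel, and the 3 IRAK4-KD libraries lay close together.

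Mobp (chromosome 9, 120149707 to 120181484, plus strand) had 1050, 755, 826 and 829 CPM in MRL replicates 1 to 4 (865 ± 128, SD, n = 4) and 868, 915, 745 and 1059 CPM in MRL-IRAK4-KD replicates 1 to 4 (897 ± 130, SD, n = 4). It had 854, 538 and 637 CPM in C57BL6/J replicates 1 to 3 (676 ± 162, SD, n = 3) and 672, 761 and 742 CPM in IRAK4-KD replicates 1 to 3 (725 ± 47.03, SD, n = 3). C57BL6/J replicate 1 stood well above the other C57BL6/J libraries here, so that this group had its widest spread for Mobp, a coefficient of variation of 23.9%.

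Mag (chromosome 7, 30899176 to 30914873, minus strand) had 162, 107, 121 and 79.8 CPM in MRL replicates 1 to 4 (117 ± 34.1, SD, n = 4) and 125, 129.9, 116 and 154 CPM in MRL-IRAK4-KD replicates 1 to 4 (131 ± 16.3, SD, n = 4). It had 98.3, 78.5 and 96.3 CPM in C57BL6/J replicates 1 to 3 (91.03 ± 10.9, SD, n = 3) and 98.5, 95.2 and 91.2 CPM in IRAK4-KD replicates 1 to 3 (94.98 ± 3.62, SD, n = 3). The 4 MRL-IRAK4-KD libraries lay above the 3 IRAK4-KD libraries without overlap, while MRL spanned a 2.03-fold range that enclosed every C57BL6/J value but the lowest.

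Mog, the surface glycoprotein of the outermost wrap (chromosome 17, 37010743 to 37023398, minus strand), had 51.97, 36.9, 39.8 and 29.5 CPM in MRL replicates 1 to 4 (39.6 ± 9.34, SD, n = 4) and 38.5, 45.8, 39.5 and 62.9 CPM in MRL-IRAK4-KD replicates 1 to 4 (46.7 ± 11.3, SD, n = 4). It had 35.5, 27.1 and 33.5 CPM in C57BL6/J replicates 1 to 3 (32.1 ± 4.37, SD, n = 3) and 30.96, 34.7 and 33.3 CPM in IRAK4-KD replicates 1 to 3 (33.0 ± 1.9, SD, n = 3). MRL-IRAK4-KD replicate 4 was the highest of all 14 libraries, and the other 3 of its group still lay above every IRAK4-KD library.

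Opalin, a small membrane glycoprotein of the mature oligodendrocyte (chromosome 19, 41061710 to 41077113, minus strand), had 24.9, 21.01, 21.4 and 11.5 CPM in MRL replicates 1 to 4 (19.7 ± 5.75, SD, n = 4) and 18.4, 25.4, 23.5 and 18.6 CPM in MRL-IRAK4-KD replicates 1 to 4 (21.5 ± 3.56, SD, n = 4). It had 22.4, 16.2 and 19.6 CPM in C57BL6/J replicates 1 to 3 (19.4 ± 3.12, SD, n = 3) and 14.4, 13.5 and 16.4 CPM in IRAK4-KD replicates 1 to 3 (14.7 ± 1.51, SD, n = 3). MRL replicate 4 was the lowest of all libraries. The IRAK4-KD libraries lay below all MRL-IRAK4-KD libraries, and overlapped the C57BL6/J group narrowly, at 16.4 against 16.2 CPM.

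Cnp, the cyclic nucleotide phosphodiesterase of myelin (chromosome 11, 100574904 to 100591729, plus strand), had 300.4, 213, 234 and 175 CPM in MRL replicates 1 to 4 (231 ± 52.6, SD, n = 4) and 232, 250.3, 227 and 292 CPM in MRL-IRAK4-KD replicates 1 to 4 (250.5 ± 29.4, SD, n = 4). It had 206, 166 and 195 CPM in C57BL6/J replicates 1 to 3 (189 ± 20.7, SD, n = 3) and 198, 189.5 and 184 CPM in IRAK4-KD replicates 1 to 3 (191 ± 7.18, SD, n = 3). As for Mag, MRL-IRAK4-KD lay above IRAK4-KD without overlap and MRL enclosed most of C57BL6/J.

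Ugt8a, the enzyme of galactosylceramide synthesis (chromosome 3, 125865271 to 125938619, minus strand), had 49.1, 30.8, 34.99 and 25.6 CPM in MRL replicates 1 to 4 (35.1 ± 10.1, SD, n = 4) and 33.2, 41.8, 37.2 and 18.7 CPM in MRL-IRAK4-KD replicates 1 to 4 (32.7 ± 9.99, SD, n = 4). It had 34.3, 27.3 and 30.4 CPM in C57BL6/J replicates 1 to 3 (30.7 ± 3.5, SD, n = 3) and 34.5, 36.4 and 36.6 CPM in IRAK4-KD replicates 1 to 3 (35.8 ± 1.18, SD, n = 3). MRL-IRAK4-KD replicate 4 was the lowest of all libraries, at 0.503 of the mean of the other 3 in its group. The C57BL6/J libraries lay just below the IRAK4-KD libraries, at most 34.3 against at least 34.5 CPM.

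Mal (chromosome 2, 127633226 to 127656695, minus strand) had 241, 155, 181 and 159.9 CPM in MRL replicates 1 to 4 (184 ± 39.4, SD, n = 4) and 182, 196, 161 and 161 CPM in MRL-IRAK4-KD replicates 1 to 4 (175 ± 17.03, SD, n = 4). It had 178, 115 and 134 CPM in C57BL6/J replicates 1 to 3 (143 ± 32.5, SD, n = 3) and 157, 161 and 157 CPM in IRAK4-KD replicates 1 to 3 (158 ± 2.47, SD, n = 3). All group pairs overlapped, and the 3 IRAK4-KD libraries differed by 1.03-fold at most.

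Cldn11 (chromosome 3, 31149920 to 31164324, plus strand) had 128, 94.7, 103 and 88.6 CPM in MRL replicates 1 to 4 (104 ± 17.1, SD, n = 4) and 103, 109.5, 98.8 and 114 CPM in MRL-IRAK4-KD replicates 1 to 4 (106 ± 6.7, SD, n = 4). It had 82.5, 66.9 and 83.3 CPM in C57BL6/J replicates 1 to 3 (77.6 ± 9.21, SD, n = 3) and 93.4, 95.5 and 92.4 CPM in IRAK4-KD replicates 1 to 3 (93.8 ± 1.62, SD, n = 3). It was the 1 member that separated both lpr groups from their controls, with every MRL library above every C57BL6/J library and every MRL-IRAK4-KD library above every IRAK4-KD library. The C57BL6/J libraries also lay below the IRAK4-KD libraries.

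MRL was set against MRL-IRAK4-KD to ask what kinase-dead IRAK4 changed in lpr mice. None of the 9 members was called at an edgeR adjusted p below 0.05, where 0.0972% of all genes tested were called. None had an unadjusted p below 0.05 either, against 11.4% of all genes, and none had ranges that did not overlap, against 5.26%. The median log2 fold change of the members was -0.05 (MRL over MRL-IRAK4-KD), beside 0.002 over all genes, and the members ran from -0.24 (SE 0.18, edgeR adjusted p = 0.575) for Mog to 0.10 (SE 0.22, edgeR adjusted p = 0.883) for Ugt8a. Mbp was estimated at 0.02 (SE 0.14, edgeR adjusted p = 0.979), an interval of 2 SE each way from -0.25 to 0.29. Without MRL-IRAK4-KD replicate 4, the median was -0.05 and the members ran from -0.18 to 0.04. The direction of the median rested on single MRL libraries, since it was -0.16 without MRL replicate 1 and 0.05 without MRL replicate 4.

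**Figure D2:**
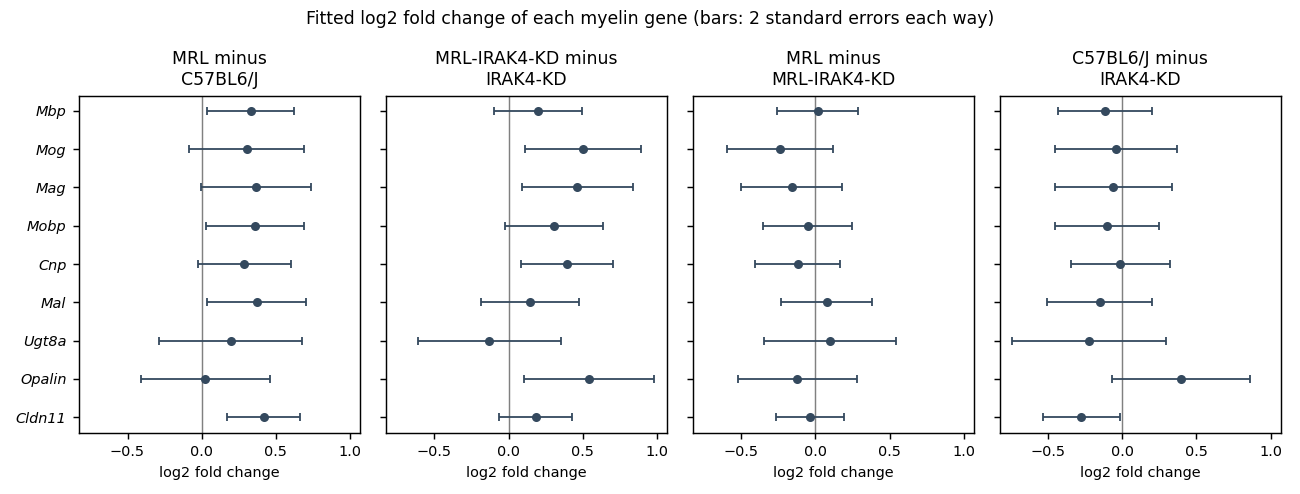
The fitted log2 fold change of each gene is shown for the 4 comparisons, with bars of 2 standard errors each way and a line at 0. The members lay to the right of 0 in both comparisons of an lpr group with its control, except Ugt8a in the second, and near 0 in MRL minus MRL-IRAK4-KD.

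The comparison of MRL with C57BL6/J asked what the lpr allele changed with intact IRAK4. None of the 9 members was called, and 0% of all genes were called by edgeR in this comparison, while 5.55% had an unadjusted p below 0.05 in either direction and DESeq2 called 197 genes and limma-voom 111, no member among them. At an unadjusted p below 0.05, 1202 genes were higher in MRL, 3.16% of those tested, and 4 of the 9 members, Mbp, Mobp, Mal and Cldn11, were among them. These 4 do not pass the threshold after adjustment. Cldn11 had the smallest p, at 0.42 (SE 0.12, edgeR adjusted p = 0.65), a 1.34-fold level. Its 4 MRL libraries lay above the 3 C57BL6/J libraries, as did 4.47% of all genes. The exact two-sided permutation test, which doubles the smaller tail, gave p = 0.0571 (0.343 after Benjamini-Hochberg adjustment over 36 tests). With 4 against 3 libraries that test allows no p below 0.0571, and so cannot reach 0.05. The fitted values were 0.37 (SE 0.17, edgeR adjusted p = 0.899) for Mal and 0.36 (SE 0.17, edgeR adjusted p = 0.899) for Mobp. All 9 members had a log2 fold change above 0, with a median of 0.33 beside -0.005 over all genes, the lowest being 0.03 (SE 0.22, edgeR adjusted p = 1.0) for Opalin. A single library weighed on this: without MRL replicate 1 the median was 0.19, and without MRL replicate 4 it was 0.42. Members with an unadjusted p below 0.05, all higher in MRL, then numbered 1 and 7 (5.54% and 4.72% of all genes in either direction). There was 1 without C57BL6/J replicate 2 (4.49%), 1 with library size as the only scaling (5.57%) and 7 by limma-voom (13.6%). The members varied together between libraries, as shown further on, so such counts are not of independent genes.

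Kinase-dead IRAK4 was compared in mice without lpr by setting C57BL6/J against IRAK4-KD. No member was called, where 0.147% of all genes were called, and none had an unadjusted p below 0.05, against 3.8% of all genes. The ranges of 2 members, Ugt8a and Cldn11, lay below those of IRAK4-KD without overlap, as did 5.63% of all genes. Cldn11 was at -0.27 (SE 0.13, edgeR adjusted p = 1.0) and Ugt8a at -0.22 (SE 0.26, edgeR adjusted p = 1.0). Opalin was the 1 member with a value above 0, at 0.40 (SE 0.23, edgeR adjusted p = 1.0). Without the library labelled IRAK4-KD replicate 3, Ugt8a and Cldn11 still lay below without overlap, as did 9.81% of all genes, and Opalin was at 0.48 (SE 0.27) and lay above without overlap, as did 9.18% of all genes. The median was -0.10, and it was -0.09 without the library labelled IRAK4-KD replicate 3. It was 0.03 without C57BL6/J replicate 2, the lowest library for 7 of the 9 members.

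MRL-IRAK4-KD against IRAK4-KD is the comparison of lpr with its control on kinase-dead IRAK4. Again no member was called, where 0.0735% of all genes were called. At an unadjusted p below 0.05, 1972 genes were higher in MRL-IRAK4-KD, 5.18% of those tested, and 4 of the 9 members, Mog, Mag, Cnp and Opalin, were among them. None of these passes after adjustment. For 5 members, Mog, Mag, Cnp, Opalin and Cldn11, every MRL-IRAK4-KD library lay above every IRAK4-KD library, as did 4.31% of all genes. Opalin was at 0.54 (SE 0.22, edgeR adjusted p = 0.553) and Mog at 0.50 (SE 0.20, edgeR adjusted p = 0.553). Mag was at 0.46 (SE 0.19, edgeR adjusted p = 0.553), and Ugt8a at -0.13 (SE 0.24, edgeR adjusted p = 0.876). The median was 0.31, beside 0 over all genes.

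Both libraries named at the outset enter that comparison. Without MRL-IRAK4-KD replicate 4, the log2 fold change of Mog was 0.32 (SE 0.16) and that of Ugt8a 0.06 (SE 0.18), 2 members had an unadjusted p below 0.05 and were higher (4.19% of all genes), and 7 lay above IRAK4-KD without overlap (7.57% of all genes). Without the library labelled IRAK4-KD replicate 3, Opalin alone had an unadjusted p below 0.05, and was higher (2.2% of all genes), and 5 members lay above without overlap (5.69% of all genes). With both left out, a choice made after seeing the data, Opalin was at 0.69 (SE 0.27, edgeR adjusted p = 0.693), the median was 0.24 and 7 members lay above without overlap, as did 11.8% of all genes. Smaller groups overlap less often by their number alone, so these counts are to be read only against the share of all genes in the same libraries. The library labelled IRAK4-KD replicate 3 lay below all 4 MRL-IRAK4-KD libraries for 8 of the 9 members, the exception being Ugt8a.

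Whether the difference with kinase-dead IRAK4 itself differed between lpr mice and mice without lpr was tested as an interaction. No member was called, where 0.00263% of all genes were called, and none had an unadjusted p below 0.05, against 4.17% of all genes. The widest estimate was that of Opalin, -0.52 (SE 0.31, edgeR adjusted p = 0.914). That of Ugt8a was 0.32 (SE 0.34, edgeR adjusted p = 0.914) and that of Mbp 0.13 (SE 0.21, edgeR adjusted p = 0.945). Without MRL-IRAK4-KD replicate 4, Opalin was at -0.57 (SE 0.31), Ugt8a at 0.14 (SE 0.25), Mbp at 0.07 (SE 0.18) and Mog at -0.01 (SE 0.22), so that the estimates of Ugt8a, Mbp and Mog were nearer to 0 without that library. Without the library labelled IRAK4-KD replicate 3, Opalin was at -0.60 (SE 0.34), Ugt8a at 0.31 (SE 0.38) and Mbp at 0.16 (SE 0.23).

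Markers of other cell types also stood at different levels in the comparisons above. In MRL against C57BL6/J, all 8 endothelial markers had a log2 fold change above 0 (median 0.79, summed level 159.7 to 297 CPM against 103 to 119), as did all 10 microglial markers (median 0.36, summed level 428 to 546 CPM against 360.4 to 381). In MRL-IRAK4-KD against IRAK4-KD, all 8 endothelial markers again lay above 0 (median 0.65, summed level 105 to 137 CPM against 72.5 to 83.0), and 9 of 10 microglial markers did (median 0.25, summed level 403 to 535 CPM against 339.8 to 383). With both libraries named at the outset left out, the endothelial median was 0.63 and the microglial 0.12, with 8 of 8 and 8 of 10 above 0. All 8 endothelial markers also lay above 0 in MRL against MRL-IRAK4-KD (median 0.67) and in C57BL6/J against IRAK4-KD (median 0.55). The summed level of the 10 neuronal markers overlapped in all groups, at 5975 to 6461 CPM in MRL, 5997 to 6715 in MRL-IRAK4-KD, 5779 to 6629 in C57BL6/J and 6198 to 6713 in IRAK4-KD, and that of the 10 astrocyte markers overlapped likewise between 3739 and 5575 CPM. The 10 markers of choroid plexus and ependyma ran from 78.3 to 1862 CPM in 13 libraries and stood at 7811 in MRL-IRAK4-KD replicate 4. Of these 10, 8 lay above 0 in MRL against C57BL6/J (median 1.03), all 10 in MRL-IRAK4-KD against IRAK4-KD (median 0.93, and 0.19 with both libraries named at the outset left out), and none in MRL against MRL-IRAK4-KD (median -0.86) or in C57BL6/J against IRAK4-KD (median -0.75). Schwann cell genes summed to 158.8 to 220.6 CPM in MRL, 110.2 to 172.8 in MRL-IRAK4-KD, 156.1 to 162.3 in C57BL6/J and 148.5 to 164.9 in IRAK4-KD. The most abundant of them were Drp2 (mean 72.2 CPM) and Sox2 (32.5 CPM), while Pmp2 was at 0 in all MRL-IRAK4-KD and C57BL6/J libraries. Striatal and thalamic markers summed to 219.7 to 297.8 CPM in MRL and 206.6 to 311.1 in MRL-IRAK4-KD. They summed to 193.4 to 249.6 CPM in C57BL6/J and 177.1 to 592.6 in IRAK4-KD. Their median log2 fold change in C57BL6/J against IRAK4-KD was -0.67, and 0.19 without the library labelled IRAK4-KD replicate 3. In the same group order, neocortical markers summed to 201.2 to 451.0, 155.5 to 289.7, 195.5 to 228.0 and 175.6 to 230.2 CPM. In MRL against C57BL6/J, 8 of 9 neocortical markers lay above 0 (median 0.45). Hippocampal field markers summed to 745.8 to 1289, 1053 to 2148, 822.5 to 1136 and 1161 to 1450 CPM. The part of these differences in the myelin values was not tested.

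Of all genes on these marker lists, 1 was called in any comparison. It was Slco1a4, an organic anion transporter of brain endothelium, at 39.7 to 54.8 CPM in MRL and 21 to 30.3 CPM in MRL-IRAK4-KD (log2 fold change 0.88, SE 0.15, edgeR adjusted p = 0.0434). With both libraries named at the outset left out, no endothelial marker was called in that comparison.

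The members varied together from library to library. Over the 14 libraries, the 36 pairs of members had a median Pearson r of 0.69 on log2(CPM + 0.1), and over the 13 libraries without MRL-IRAK4-KD replicate 4 a median of 0.84, with all 36 pairs above 0. Cnp and Mag were the closest pair, with r = 0.99 over both sets of libraries, and Opalin and Mobp the loosest over 13 libraries, with r = 0.41. Libraries of 1 tissue share dissection, depth and scaling, so these values describe the libraries and carry no test. In MRL replicate 1 all 9 members stood above their own mean, by 0.41 (Mobp) to 0.58 (Mag) on the log2 scale, and 6 of the 9 had their highest value there. In C57BL6/J replicate 2 all 9 stood below, with a median of -0.46 on the log2 scale, and 7 had their lowest value there. The mean log2 level of the 9 members had an SD of 0.20 between libraries of a group.

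**Figure D3:**
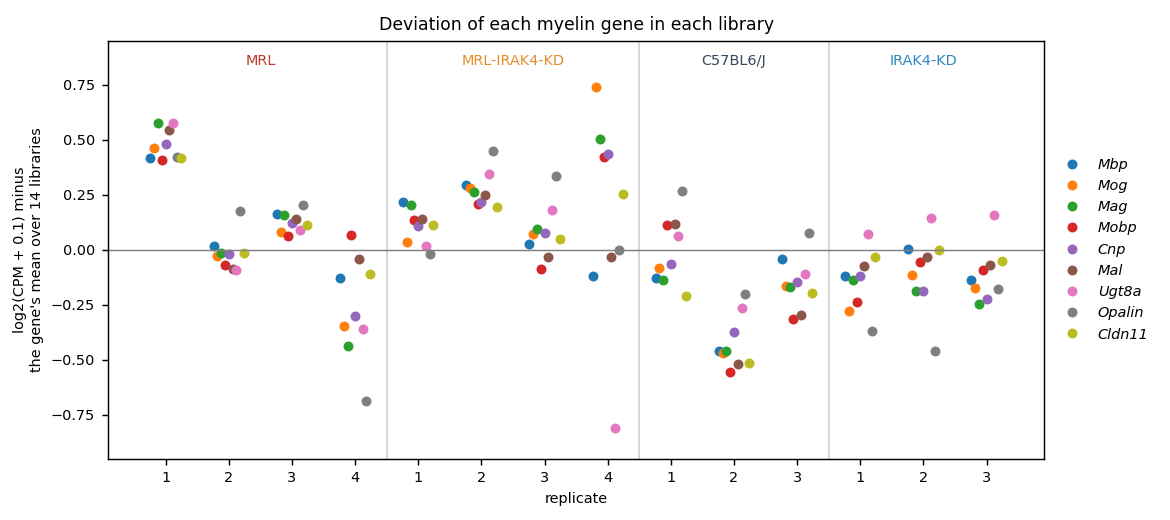
Each point is 1 myelin gene in 1 library, plotted as its log2(CPM + 0.1) minus the mean of that gene over the 14 libraries. The 9 points of a library mostly lie close together, from 0.41 to 0.58 in MRL replicate 1, while those of MRL-IRAK4-KD replicate 4 spread from -0.81 for Ugt8a to 0.74 for Mog.

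Opalin and Ugt8a lay apart from the other members in several libraries. In MRL replicate 4, Opalin was at -0.69 and Mobp at 0.07 relative to their means. In the 3 IRAK4-KD libraries, Opalin lay below its mean, at -0.46 in replicate 2, while Ugt8a lay above its mean in all 3, at 0.07 to 0.16. In MRL-IRAK4-KD replicate 4, the members split, with Mog, Mag, Mobp, Cnp and Cldn11 above all 3 others of the group and Mbp, Mal and Ugt8a below them.

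Over 16102 genes with a mean of at least 1 CPM, the difference of replicate 4 from the mean of replicates 1 to 3 had a Spearman correlation of -0.42 with the mean transcript length, a median of 0.79 on the log2 scale for transcripts under 1000 bases and of -0.54 for those over 6000 bases. Ugt8a had the longest transcripts of the 9 members, 3739 bases on average, and stood at -0.99. Mog had the shortest, 1704 bases, and stood at 0.61. The order of the members followed length only in part, with a Spearman correlation of -0.33 (n = 9), since Mobp (2631 bases, 0.34) and Cnp (2526 bases, 0.30) lay above Mbp (2075 bases, -0.30) and Opalin (2145 bases, -0.26). Among all 37 genes of the members and of the list of other myelin and mature oligodendrocyte genes, the correlation was -0.42, with exceptions such as Cdk18 at 0.33 with 4303 bases and Nkain1 at -1.35 with 1171 bases. In the other 13 libraries, each set against the rest of its group, the same correlation over all genes lay between -0.37 (IRAK4-KD replicate 1) and 0.46 (IRAK4-KD replicate 3). The values of MRL-IRAK4-KD replicates 1 to 3 (0.281, 0.425 and 0.374) were taken against a mean that held replicate 4. A rank correlation does not give the size of a departure, so it cannot say whether other libraries varied with length as much as replicate 4. The part of length in the members' values was not tested.

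**Figure D4:**
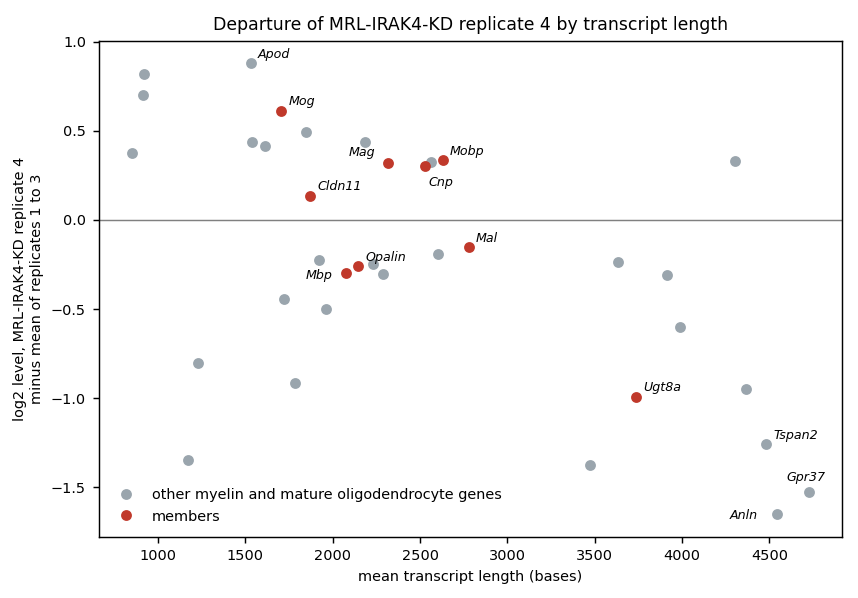
For the 9 members (red) and other myelin genes (grey), the log2 level in MRL-IRAK4-KD replicate 4 minus the mean of replicates 1 to 3 is plotted against the mean transcript length in bases. Anln, Gpr37 and Tspan2, with transcripts of 4483 to 4725 bases, lie at -1.26 or lower, and Ugt8a is the lowest member at -0.99.

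Transcripts of the members were counted separately in the deposited data, and the shares below are those of transcripts that held at least 5% of the counts of their gene in any library. Such shares rest on how the assembler divided reads common to several transcripts, so they are given as ranges with no test. The transcripts of 1 gene share its total, so their shares are not independent. How many of all transcripts have shares that separate the groups was not computed. Ranges without overlap are therefore only described here and not read as a difference between groups. Mog-201, Mal-202 and Cldn11-201 held nearly all counts of their genes in every library. Mbp had 7 such transcripts of 16 annotated. Mbp-211, with a coding sequence of 128 residues, held 41.5% to 64.8% of the counts, the highest share being in MRL-IRAK4-KD replicate 4. Mbp-212, with 169 residues, held 17.4% to 20.4% in MRL, 6.89% to 17.2% in MRL-IRAK4-KD, 19.7% to 25.8% in C57BL6/J and 15.8% to 18.7% in IRAK4-KD. The C57BL6/J range of Mbp-212 thus lay above that of IRAK4-KD and overlapped that of MRL. Mbp-205 and Mbp-201, which begin at the distant upstream start of the golli transcripts (82475146 and 82475162) and code for 195 and 250 residues, were minor. Mbp-201 held 1.25% to 5.65% in MRL, 1.18% to 4.67% in MRL-IRAK4-KD, 1.25% to 1.93% in C57BL6/J and 4.76% to 5.87% in IRAK4-KD. Mbp-205 held 3.25% to 5.02%, 2.84% to 3.74%, 4.61% to 6.44% and 3.97% to 4.24% in the same order. Between C57BL6/J and IRAK4-KD neither overlapped, with Mbp-201 lower and Mbp-205 higher in C57BL6/J.

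Mag was split between 2 starts. Mag-203, from the first start, held 61.0% to 76.8% of the counts in MRL, 74.9% to 82.5% in MRL-IRAK4-KD, 49.6% to 75.2% in C57BL6/J and 73.8% to 82.1% in IRAK4-KD, and Mag-207, from the third, held 12.5% to 35.2% over all libraries. The lowest share of Mag-203 was in C57BL6/J replicate 2 and the highest share of Mag-207 in MRL replicate 4, the libraries with the lowest and next lowest total of Mag. Mobp-204, which GENCODE classes as a target of nonsense-mediated decay, held 88.4% to 92.3% and the coding Mobp-202 5.61% to 8.05%, although both models hold a coding sequence of 81 residues.

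Cnp and Opalin each divided between a coding and a non-coding model. Cnp-201, with 420 residues, held 80.3% to 90.0% of the counts in MRL replicates 3 and 4 and MRL-IRAK4-KD replicates 3 and 4, 74.7% in C57BL6/J replicate 1, and 52.5% to 61.2% in the other 9 libraries, with the rest mostly in the processed transcript Cnp-204. Within each lpr group, 2 libraries lay high and 2 low. Opalin-201, with 143 residues, held 65.0% to 76.7% in MRL, 48.5% to 71.0% in MRL-IRAK4-KD, 63.6% to 72.9% in C57BL6/J and 54.9% to 64.2% in IRAK4-KD, and the retained-intron model Opalin-202 the rest. The IRAK4-KD range of Opalin-201 lay below that of MRL and overlapped the other groups.

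**Figure D5:**
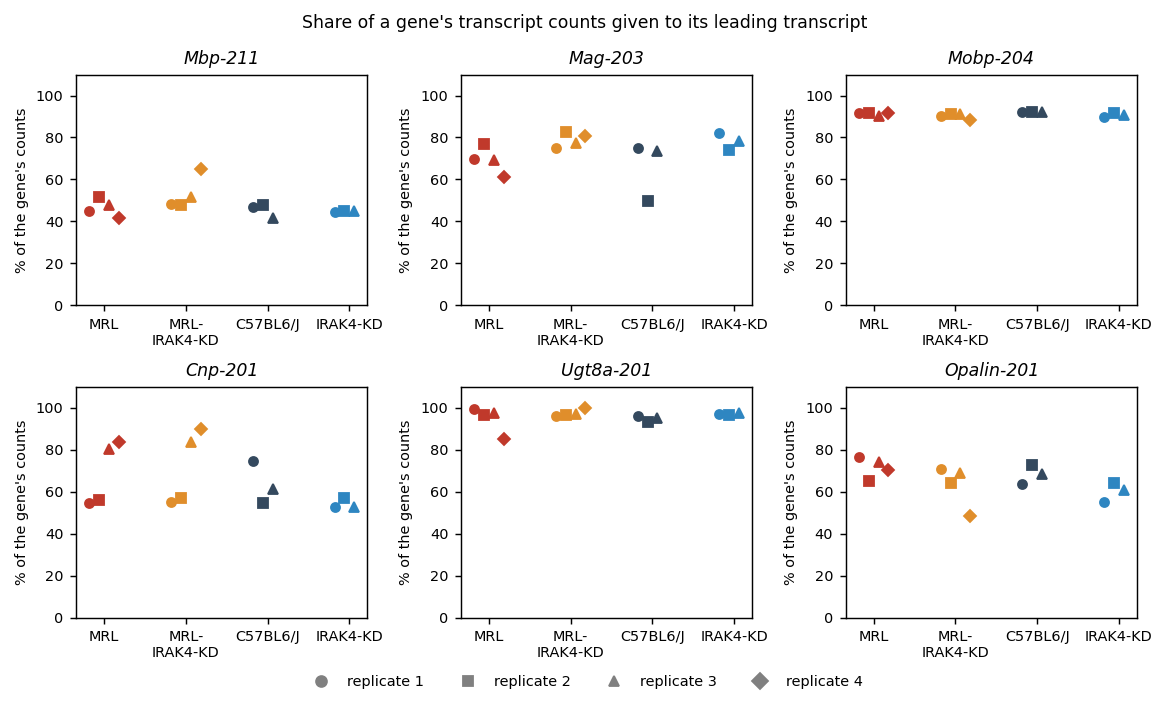
Each panel plots the percentage of the counts of a gene that were given to its leading transcript, for the 6 members with several, by group, with marker shapes for the replicate. Cnp-201 falls into a high and a low set of libraries within both lpr groups, while Ugt8a-201 stays at 85.3% or more and Mobp-204 between 88.4% and 92.3% throughout.

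Of 28 other myelin and mature oligodendrocyte genes, none was called in any comparison of the fit to all 14 libraries. Without MRL-IRAK4-KD replicate 4, 1 of the 28 was called in MRL-IRAK4-KD against IRAK4-KD, where 65 of 37836 genes were called. In MRL against C57BL6/J, 26 of the 28 had a log2 fold change above 0 (median 0.24). At an unadjusted p below 0.05, 1 was higher, against 4 of the 9 members and 3.16% of all genes. With MRL-IRAK4-KD replicate 4 and IRAK4-KD replicate 3 left out of the fit, 26 lay above 0. At an unadjusted p below 0.05, 6 were then higher and 1 lower, where 5.7% of all genes were higher. In MRL-IRAK4-KD against IRAK4-KD, 19 of 28 lay above 0 (median 0.13). Of them, 8 had an unadjusted p below 0.05 and all 8 were higher, against 5.18% of all genes. Without both libraries, 25 lay above 0 (median 0.19) and 5 were higher at an unadjusted p below 0.05, against 3.1% of all genes. Trf, the iron carrier transferrin, was at 208 to 362 CPM in MRL, 272 to 364 in MRL-IRAK4-KD, 182 to 236 in C57BL6/J and 218 to 253 in IRAK4-KD.

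The lists of the lineage before and behind the mature cell held no called gene either. The median log2 fold change of 13 precursor markers was 0.10 in MRL against C57BL6/J and -0.10 in MRL-IRAK4-KD against IRAK4-KD, with Tnr and Ptprz1 the most abundant at means of 191.4 and 190.8 CPM. That of 12 genes of committed and newly formed oligodendrocytes was 0.07 and 0.08, led by Bcas1 (mean 172 CPM) and the deacetylase Sirt2 (110.5 CPM). That of 12 transcription factors of the lineage was 0.04 and 0.12, led by Zeb2 (225 CPM) and Olig1 (77.0 CPM). Of 12 oligodendrocyte genes that rise in inflammation, 11 lay above 0 in each of the comparisons, 10 of them in both, with medians of 0.31 and 0.32, and Ptgds (541 CPM) and S100b (131 CPM) were the most abundant. With both libraries named at the outset left out, the medians in MRL-IRAK4-KD against IRAK4-KD were 0.01 for the precursor markers, 0.04 for the committed cells, 0.07 for the transcription factors and 0.18 for the inflammation genes. In MRL against MRL-IRAK4-KD, the medians were 0.249, -0.055, -0.097 and 0.171 in that order. Without MRL-IRAK4-KD replicate 4 they were 0.115, -0.047, -0.055 and 0.332. Of the 13 precursor markers, 9 lay above 0 in the fit to all 14 libraries. At an unadjusted p below 0.05, 3 were higher and 1 lower, against 11.4% of all genes in either direction.

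Of 20 genes of galactolipid, very-long-chain lipid and cholesterol synthesis, which include Hmgcs1 and the regulator Srebf2 as the most abundant (means of 210.3 and 167 CPM), the median log2 fold change was 0.03 in MRL against C57BL6/J. In C57BL6/J against IRAK4-KD, 17 of 20 lay above 0 (median 0.22) and 5 had an unadjusted p below 0.05, all higher in C57BL6/J, with none called, where 3.8% of all genes had such a p in either direction. Without the library labelled IRAK4-KD replicate 3, 15 of 20 lay above 0 (median 0.22) and 5 were higher at an unadjusted p below 0.05, against 1.52% of all genes. Among the members, the galactosylceramide enzyme Ugt8a had a value of the other sign in that comparison. The summed level of the list was 1059 to 1152 CPM in C57BL6/J and 912 to 957 CPM in IRAK4-KD, with no overlap.

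The genes most like the members were sought by the Pearson r of their log2(CPM + 0.1) with the mean standardised level of the 9 members over the 14 libraries. Among 16095 genes with a mean of at least 1 CPM, 4.14% had r above 0.5, and the median was 0.03. The 10 with the highest r were Tmem63a (0.967), Trf (0.926), Bcas1 (0.922), the integrin subunit Itgb4 (0.921), Aldh1a1 (0.908), Litaf (0.904), Arhgap23 (0.888), the connexin Gjb1 (0.871), the sphingosine 1-phosphate receptor S1pr5 (0.865) and Ttyh2 (0.862). Without MRL-IRAK4-KD replicate 4, all 10 kept r of at least 0.855. Of the 28 other myelin genes, 15 had r above 0.5 over 14 libraries, with a median of 0.56 that was 0.85 over the 13 libraries.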

How the data were processed

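Hippocampal RNA of 14 mice (4 MRL, 4 MRL-IRAK4-KD, 3 C57BL6/J, 3 IRAK4-KD) was sequenced, 1 library per mouse, and groups were taken from the sample labels. The authors deposited raw counts per gene and per transcript, whole numbers with no normalization. Their processing notes name HISAT2 2.1.0, SAMtools 1.9, StringTie 2.1.0, R 4.0.5, DESeq2 1.30.1 and mm10. A sheet the authors deposited gives other measures per library (reads, qPCR concentration and Qubit input). The library kit and read layout differ between the sources, and strand-specific counting is not given in the sources used here. StringTie counts are estimated from coverage, so total counts (279941472 to 572398312) exceed the reads and intervals from counting alone would be too narrow. No column of another series was found (0). Lines naming no Ensembl gene, 0.025% to 0.188% of counts, were left out.

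Genes whose counts summed to 10 or more were fitted with edgeR 4.0.16 (R 4.3.3, TMM scaling, quasi-likelihood test, 1 fit over the 4 groups, Benjamini-Hochberg adjustment over 38070 genes, threshold 0.05). CPM are TMM-scaled. Single members were also tested by exact two-sided permutation on log2(CPM + 0.1). The p-values measure the spread between these mice. Alternatives used limma 3.58.1 (voom) and DESeq2 1.42.0, other scalings and filters, the 2 groups alone, a replicate block, transcript counts summed per gene, halved counts and each library left out. Tables and plots used Python 3.11.15, pandas 2.3.3, scipy 1.17.1 and matplotlib 3.10.9. The fit was tested on simulated data. The members and lists were chosen with earlier results of these data known. Named genes were the members, the called genes of each other list (otherwise its 2 most abundant), and the 10 genes most like the members. Any other gene named was chosen after its values were seen. Some genes that this rule would name are not reported here.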

Additional observations from a re-analysis of the deposited data

How the results depend on the processing

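No member was called in any of the 96 alternatives to the counts of called members, and the members' median log2 fold change moved from its reported value by less than the SD between libraries (0.20) in all 72 alternatives. It ranged over -0.163 to 0.049, 0.187 to 0.422, -0.222 to 0.027 and 0.179 to 0.375 in MRL against MRL-IRAK4-KD, MRL against C57BL6/J, C57BL6/J against IRAK4-KD and MRL-IRAK4-KD against IRAK4-KD, so its sign turned in the first and in C57BL6/J against IRAK4-KD. Of 864 single-member alternatives, 824 kept direction and side of the threshold and 40 reversed; the cause was not tested. All 36 permutation tests stayed on their side of 0.05 with a pseudocount of 1. Those with a group of 3 libraries could not have crossed it. Their lowest possible p in the exact permutation test is 0.0571 (4 against 3) or 0.1 (3 against 3), so they show nothing about the pseudocount. In MRL against MRL-IRAK4-KD, limma-voom gave Mbp -0.033, Mobp 0.037 and Ugt8a -0.158, and leaving out MRL-IRAK4-KD replicate 4 and IRAK4-KD replicate 3 together (chosen after seeing the data) gave -0.056, 0.035 and -0.094. Library size alone gave Opalin -0.037 in MRL against C57BL6/J. For Ugt8a in MRL-IRAK4-KD against IRAK4-KD, limma-voom gave 0.036, the replicate block 0.013 and both libraries out 0.077. In the interaction, limma-voom gave Mog 0.029 and both libraries out gave Mag 0.021 and Cnp 0.003.

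With each library left out in turn, MRL against MRL-IRAK4-KD ranged over -0.097 to 0.111 for Mbp, -0.356 to 0.009 for Mag, -0.163 to 0.044 for Mobp, -0.277 to 0.012 for Cnp, -0.084 to 0.161 for Mal, -0.109 to 0.252 for Ugt8a, -0.258 to 0.083 for Opalin and -0.159 to 0.049 for Cldn11. MRL against C57BL6/J ranged over -0.094 to 0.228 for Opalin. C57BL6/J against IRAK4-KD ranged over -0.12 to 0.057 for Mog, -0.119 to 0.027 for Mag, -0.303 to 0.032 for Mobp and -0.079 to 0.065 for Cnp. MRL-IRAK4-KD against IRAK4-KD ranged over -0.273 to 0.063 for Ugt8a. The interaction ranged over -0.295 to 0.074 for Mag, -0.069 to 0.266 for Mobp and -0.264 to 0.029 for Cnp.

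Counts of genes called moved more. In the order MRL against MRL-IRAK4-KD, MRL against C57BL6/J, C57BL6/J against IRAK4-KD, MRL-IRAK4-KD against IRAK4-KD and interaction, edgeR called 37, 0, 56, 28 and 1 genes, DESeq2 395, 197, 166, 283 and 59, and limma-voom 711, 111, 213, 484 and 52. Fits of the 2 groups alone called 18 in MRL against MRL-IRAK4-KD, 95 in C57BL6/J against IRAK4-KD and 6 in MRL-IRAK4-KD against IRAK4-KD. Both libraries out called 20 in MRL against C57BL6/J and 11 in the interaction, where no filter called 4, halved counts 4 and the replicate block 2. Leaving out each library called 25 to 52, 0 to 6, 33 to 38, 11 to 65 and 1 to 15. Same-numbered libraries correlated at -0.25 to 0.375 in their deviations from the group means, so the replicate numbers were not taken to pair mice. With 3 or 4 mice a group, differences of the size of the standard errors given could not be detected.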

Other observations

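The genes in this paragraph were chosen after their values were seen. Every MRL library lay above every C57BL6/J library for 4.47% of all genes, and every MRL-IRAK4-KD library above every IRAK4-KD library for 4.31%. The share of genes that separate in both was not computed. Nkx6-2, a transcription factor of the mature oligodendrocyte, was at 4.54 to 7.77 CPM in MRL, 5.65 to 6.69 in MRL-IRAK4-KD, 3.6 to 4.12 in C57BL6/J and 2.94 to 3.97 in IRAK4-KD. Thus every MRL and MRL-IRAK4-KD library lay above every library labelled C57BL6/J or IRAK4-KD, the library labelled IRAK4-KD replicate 3 included. Ppp1r14a, an inhibitor of myosin phosphatase found in oligodendrocytes, was at 8.69 to 15.9 CPM in MRL-IRAK4-KD and 4.32 to 5.4 in IRAK4-KD, with no overlap, while MRL (6.22 to 10.4) and C57BL6/J (5.83 to 7.97) overlapped. Neither gene was called in the fit to all 14 libraries. The sterol synthesis enzymes Sqle and Msmo1 were lowest in IRAK4-KD, at 43.0 to 44.7 and 69.7 to 77.7 CPM, against 53.3 to 61.8 and 93.6 to 108 CPM in C57BL6/J, and neither was called.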
